A study of Homo sapiens with 8 samples.

Results

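The p63 regions of SCC13, an established human cutaneous squamous cell carcinoma line, were described as the authors listed them: every row of their SCC13 list was taken. The list held 5886 regions, or 38.6% of the 15267 distinct regions listed in SCC13, in CAL27 (a second squamous carcinoma line) or in both. Chromatin immunoprecipitation and sequencing recovers DNA bound by a protein, here p63, and a region is a stretch where the recovered DNA was called above background. SCC13 contributed 4 of the 8 samples, 2 replicates of p63 immunoprecipitation and 2 replicates titled none, all labelled WT with no treatment. The cells grew in serum-free keratinocyte medium with bovine pituitary extract, EGF and added calcium, whereas CAL27 grew in medium with serum. SCC13 is 1 line, and both p63 replicates stand behind 1 list with no score, height or depth. No spread between replicates could therefore be computed, and the none samples were not analysed here.

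The transcription factor p63, encoded by TP63, belongs to the p53 family and marks the basal layer of stratified epithelia. It is known for binding distant enhancers as well as promoters, and for sustaining keratin, adhesion and basement membrane genes in keratinocytes and squamous tumours. Positions below are on hg19 and count from 1. Gene models of hg19 were not used here, so a locus is described by the cytogenetic band known to hold it, and whether a region lies in a gene, an exon or an intron was not analysed here.

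SCC13 regions lay on all 22 autosomes and X, at 1.94 per Mb (95% exact Poisson interval 1.89 to 1.99, which like all intervals here covers counting error only). Together they covered 5.46 Mb, or 0.180% of the chromosomes. Of the regions, 4448 (75.6%, 95% exact binomial interval 74.5 to 76.7) were also listed in CAL27 and 1438 were not. All shared regions have the same start and end in both lists, so the 2 lists cannot be taken as independent. Density was highest on chromosome 20, at 3.00 per Mb (2.59 to 3.46), followed by chromosome 17 at 2.87 (2.51 to 3.26) and chromosome 19 at 2.74 (2.33 to 3.20). These 3 intervals overlap, so their order is not resolved. X had 0.895 per Mb (0.753 to 1.06) and chromosome 13 had 1.14 (0.951 to 1.35), the 2 lowest values. Counts were largest on the long chromosomes, with 612 regions on chromosome 1 and 88 on chromosome 21.

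**Figure D1:**
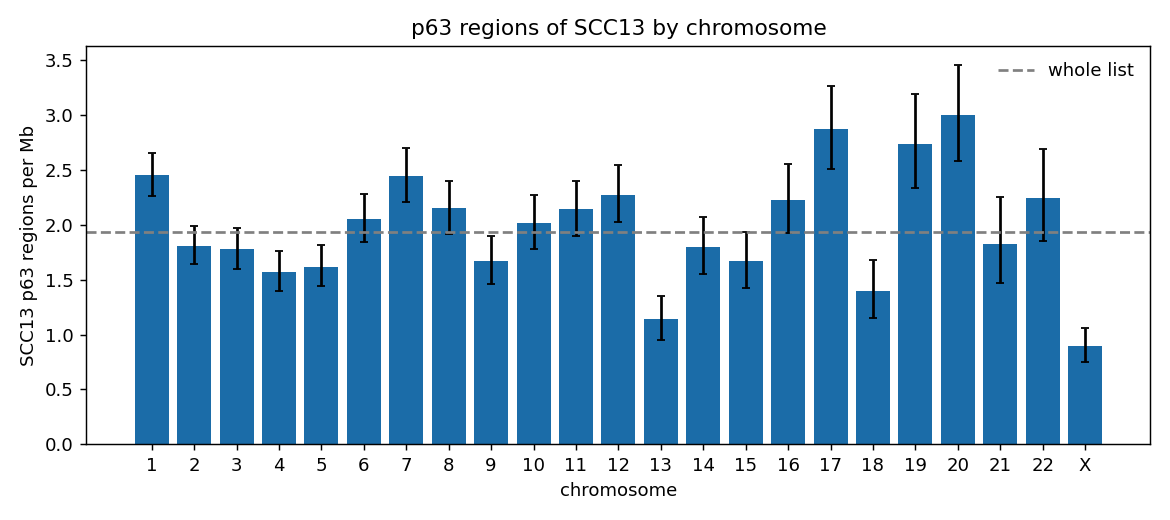
SCC13 p63 regions per Mb on each chromosome (bars from 0, with exact Poisson 95% intervals) and over the whole list (dashed line, 1.94 per Mb). Chromosome 20 is highest at 3.00 per Mb and X lowest at 0.895.

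Among 41 chromosome arms, counted without centromeric, variable and stalk bands, 19p held the most regions per Mb. Its 77 regions gave 3.85 per Mb (3.04 to 4.81), next to 3.48 (2.88 to 4.17) on 20q and 3.35 (2.76 to 4.03) on 22q. At the other end, Xq had 0.780 per Mb (0.611 to 0.983) and Xp 1.15 (0.894 to 1.46). The arms of chromosome 7 lay apart, with 3.24 per Mb (2.79 to 3.74) on 7p and 2.06 (1.79 to 2.37) on 7q. So did those of chromosome 6, with 2.74 (2.34 to 3.20) on 6p and 1.77 (1.53 to 2.04) on 6q. Those of chromosome 9 did so the other way round, with 1.21 (0.913 to 1.56) on 9p and 2.38 (2.04 to 2.75) on 9q. These pairs were picked after their values were seen, and no difference between arms was tested. Density also differed by distance from the chromosome ends: 2.63 per Mb (2.43 to 2.85) within 5 Mb of an end, and 1.62 (1.54 to 1.70) beyond 50 Mb.

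Giemsa staining divides chromosomes into pale bands, rich in genes, and darker bands with fewer genes. The pale bands held 2.58 SCC13 regions per Mb (2.49 to 2.66), and density was lower in the darker classes of stain. The lightest grey class had 2.57 per Mb (2.36 to 2.79), not resolved from the pale bands, the next classes 1.93 and 1.60, and the darkest class 1.11 (1.02 to 1.21). Regions in the darkest bands had a median width of 780 bp against 880 bp in pale bands, a difference that was not tested, and 63.5% (59.4 to 67.6) of them were in the CAL27 list against 77.8% (76.4 to 79.3). Centromeric bands held 27 regions and stalk bands none.

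Of all 851 bands, 763 (89.7%) held at least 1 SCC13 region. A set of 236 bands, 24.7% of chromosome length, held 50% of the list when bands were taken from the densest down. Among 623 bands of at least 2 Mb, again without centromeric, variable and stalk bands, the median density was 1.90 per Mb and the middle 50% ran from 1.14 to 2.95. The 10 densest together held 231 regions in 31.8 Mb, and 200 of the 231 were also in CAL27.

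The densest band was 11q13.1, home of OVOL1, a zinc finger regulator of epidermal differentiation. Its 23 regions gave 9.20 per Mb (5.83 to 13.8), and all 23 were also in CAL27, where the band had 53. The widest, of 2414 bp, lay at chr11:65187851-65190264. Next came 7p13 with 18 regions and 8.57 per Mb (5.08 to 13.5), then 17q21.2 with 20 and 8.00 (4.89 to 12.4), the band of the type I keratins.

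The band of the epidermal differentiation complex, 1q21.3, held the most regions of the 10 densest. The whole band had 36 in 4.7 Mb, or 7.66 per Mb (5.36 to 10.6). The others of the 10 were 7p22.3 with 22 regions, 22q12.2 with 19, 19q13.32 with 20, 1p36.11 with 28, 1p35.1 with 13 and 21q22.3 with 32. Their densities ran from 7.86 per Mb on 7p22.3 to 5.79 on 21q22.3, and all 10 intervals overlap. With bands of at least 4 Mb, 3 of these 10 stayed among the densest and 1q21.3 came first, and with regions at least as wide as the median 6 stayed. In 1p35.1, 6 of 13 regions were also in CAL27, against 75.6% of the whole list, a difference that was not tested.

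At a finer scale, the 3053 windows of 1 Mb held from 0 to 14 regions. No region fell in 893 windows (29.2%), and 718 held 1. The fullest window was chr1:152000001-153000000, inside the epidermal differentiation band, with 14 regions, 13 of them also in CAL27. Windows with 11 regions followed, centred in 1p36.13, 1q32.2 and 16q23.2, with an adjoining pair centred in 11q13.1. In 1p36.13, 7 of the 11 were also in CAL27, while all 11 were in 1q32.2 and in each 11q13.1 window. Over the whole list the share was 75.6%, and no window was tested against it.

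Of the 623 bands, 13 held no SCC13 region. The 10 that come first in genome order are 3p26.3, 3q13.31, 4p12, 5q21.1, 7q21.13, 8q24.23, 9p12, 9p11.2, 11p11.12 and 15q25.3. For 15q25.3, a band of 3.9 Mb, a count of 0 has an exact Poisson upper bound of 0.946 regions per Mb, and CAL27 had 14 regions there. CAL27 had 8 in 3q13.31, 5 in 5q21.1, 2 in 7q21.13 and 1 in 4p12, and none in the other 5 of the 10. Since the depth is unknown, absence from a list does not establish that p63 was absent.

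Long stretches without a region were common. Of 5812 gaps between neighbouring regions that touch no centromeric, variable or stalk band, 738 exceeded 1 Mb and 11 exceeded 5 Mb. The longest, of 8.26 Mb, lay at chrX:85397122-93655402, from Xq21.2 to Xq21.33, and it held no CAL27 region either. The next were 6.76 Mb at chr5:96896518-103652340 with 9 CAL27 regions, 6.29 Mb at chrX:122952809-129244946 with 9, and 6.01 Mb at chr9:101011693-107017882 with 11. The fifth, of 5.92 Mb at chr14:35684383-41606821, held 21 CAL27 regions. So 4 of these 5 stretches were free of regions in SCC13 alone.

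Most SCC13 regions stood alone. The median distance from the midpoint of a region to the nearest other was 102 kb (95% interval 96.6 to 109), and the middle 50% ran from 32.1 to 265.0 kb. A neighbour lay within 12.5 kb for 12.3% (11.4 to 13.1), within 100 kb for 49.4% (48.1 to 50.7) and within 1000 kb for 97.0% (96.6 to 97.5). Regions also listed in CAL27 had a median of 91.5 kb (88.0 to 97.1), and regions listed in SCC13 only had 139 kb (125 to 154). On X the median was 259 kb (154 to 373), against 55.8 kb on chromosome 17.

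**Figure D2:**
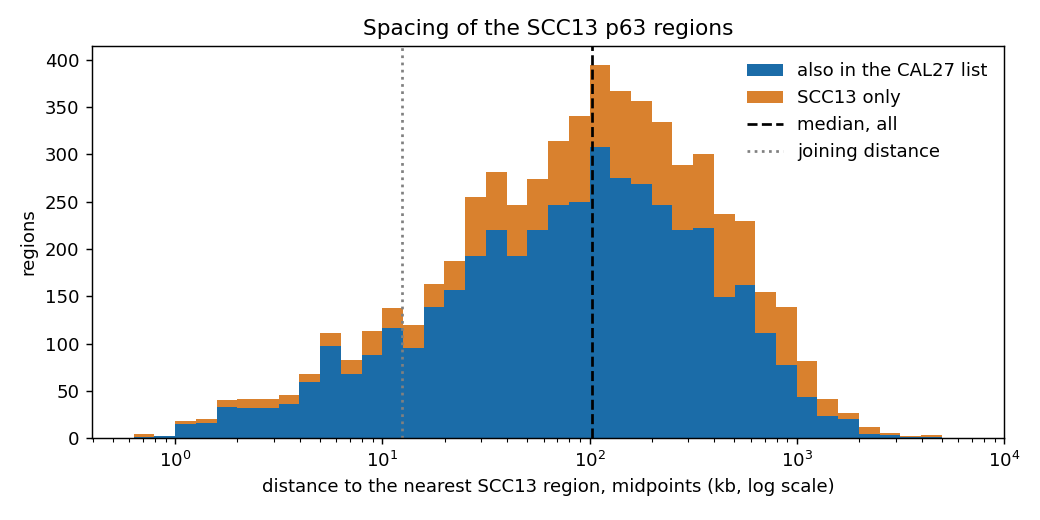
Number of SCC13 regions (vertical axis) by distance to the nearest other SCC13 region in kb (log scale), stacked by whether the region is also in the CAL27 list, with the median (dashed) and the joining distance of 12.5 kb (dotted). Distances centre near 102 kb, and 12.3% lie at or below 12.5 kb.

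The closest pair lay on 4q23, with midpoints 756 bp apart: chr4:99714893-99715393 and chr4:99715641-99716157, both listed in SCC13 only. The next closest, 789.5 bp apart, lay in 20p13 at chr20:1480237-1480562 and chr20:1480877-1481501, and only the latter was in CAL27. A pair 879 bp apart in 7p13, at chr7:43607969-43608642 and chr7:43608930-43609439, was in both lists. Only these 3 pairs were within 1 kb.

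Widths ranged from 217 to 3456 bp, with a median of 862 bp and the middle 50% between 661 and 1116 bp. At least 1500 bp was reached by 498 regions (8.46%) and 2000 bp by 99 (1.68%). Regions also in CAL27 had a median width of 934 bp, and regions listed in SCC13 only had 589.5 bp. The median width was 944 bp in groups of 3 or more, 904 bp in pairs and 856 bp for regions with no other within 12.5 kb. In the same order, 90.2% (81.7 to 95.7), 81.2% (78.0 to 84.2) and 74.6% (73.4 to 75.8) were also in CAL27. Width and sharing thus varied together, and they were not separated here. Among chromosomes the median width ran from 727 bp on X and 729.5 bp on chromosome 4 to 972.5 bp on chromosome 21. A width depends on how regions were called and is no measure of binding strength.

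The 10 widest regions were all also in CAL27. The first 5 have widths of 3456, 3420, 3335, 3113 and 2969 bp, and lie in 3q25.33, 1q21.3, 1p35.2, 9q34.3 and 15q23. The next was 2764 bp wide at chr5:36450706-36453469 in 5p13.2, with another region 9513 bp away. It was followed by 2735 bp at chr1:161449978-161452712 in 1q23.3, whose nearest neighbour was 406442 bp away. Regions of 2734 bp at chr7:1597757-1600490 in 7p22.3, 2661 bp at chr15:40530789-40533449 in 15q15.1 and 2645 bp at chr1:1837895-1840539 in 1p36.33 completed the 10. Great width thus occurred both beside other regions and far from them. The 5 narrowest, of 217 to 255 bp, were all listed in SCC13 only, the class with the lower median width in the whole list. Regions in both lists have the same start and end in each, so the width of a shared region is not a separate measurement of SCC13.

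Chains of midpoints at most 12.5 kb apart formed 25 groups of 3 or more regions on 14 chromosomes. They held 82 regions, 1.39% of the list, in spans of 5972 to 26689 bp. In 18 of the 25 every region was also in CAL27, and 16 of the 25 lay in pale bands. The typical group was mostly gap: regions covered a median of 20.2% of the span.

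**Figure D3:**
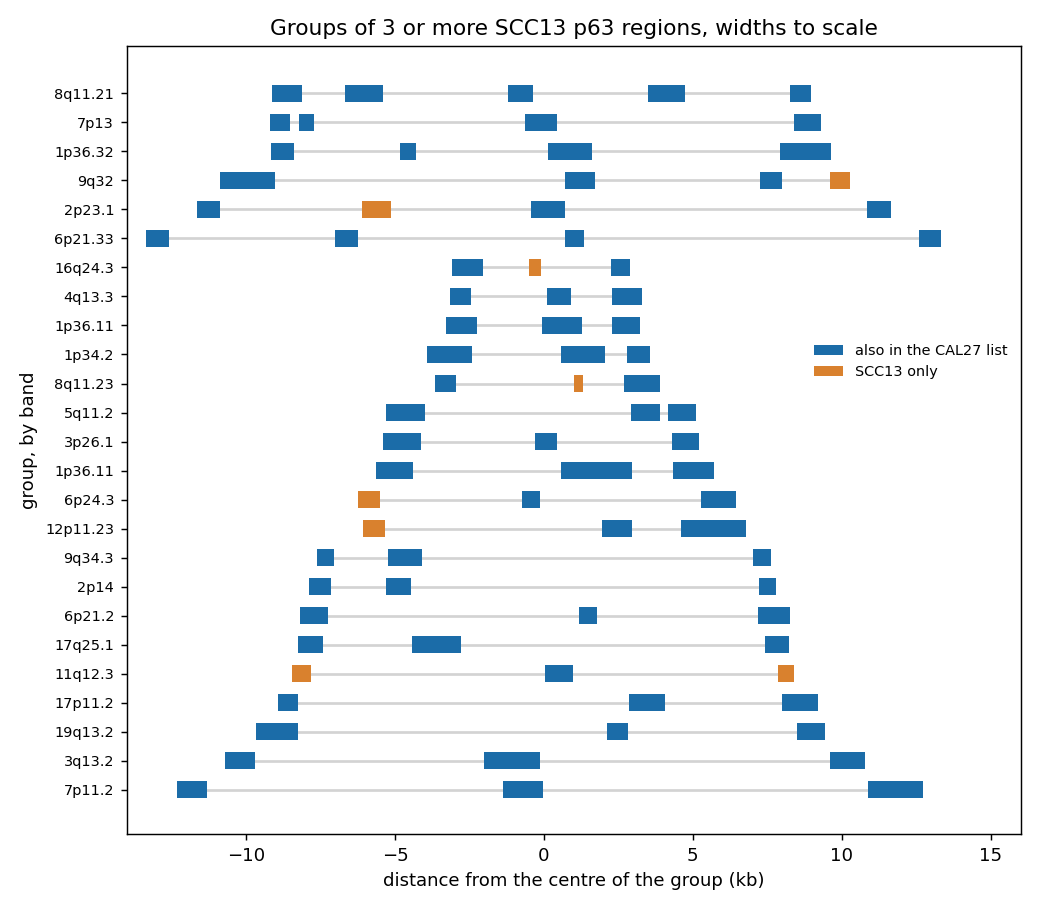
The 25 groups of 3 or more SCC13 regions, 1 row each and named by band, drawn to scale by distance in kb from the centre of the group, with regions also in CAL27 in blue and regions listed in SCC13 only in orange. Groups of 5 and 4 regions are the top 6 rows, and 7 groups have an orange region.

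The only group of 5 lay in 8q11.21 at chr8:49608580-49626684. Its regions were 1018, 1269, 858, 1243 and 701 bp wide from the first to the last, all in both lists. Among the 5 groups of 4, the one in 1p36.32, the band of the p63 paralogue TP73, had regions of 776, 558, 1470 and 1709 bp at chr1:3597452-3616248. In 7p13 the 4 regions, at chr7:43607969-43626453, were 674, 510, 1082 and 886 bp wide. In 6p21.33, at chr6:30843760-30870448, they were nearly equal in width, at 761, 772, 632 and 729 bp. All regions of these 4 groups were also in CAL27.

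The other 2 groups of 4 each had 1 region listed in SCC13 only. In 2p23.1 it was the second of 4, of 973 bp at chr2:31607220-31608192, between regions of 770 and 1154 bp. In 9q32 it was the last, of 672 bp at chr9:117569861-117570532, in a group that opened with a region of 1870 bp.

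The 5 shortest groups of 3 spanned 5972 to 7542 bp. In 16q24.3, at chr16:89542505-89548476, and in 8q11.23, at chr8:54851109-54858650, the middle region was listed in SCC13 only and was the narrowest of its group, at 404 and 322 bp. In 4q13.3, at chr4:75275837-75282284, the regions were 702, 804 and 1031 bp wide. In 1p36.11, at chr1:27848792-27855301, they were 1018, 1314 and 943 bp wide, and in 1p34.2, at chr1:43401825-43409321, 1516, 1502 and 769 bp. These last 3 groups were wholly in both lists. Other groups of 3 lay in bands of the keratinocyte loci described next: a second in 1p36.11, which holds SFN and GRHL3, and 1 each in 6p24.3 (DSP and TFAP2A), 6p21.2 (CDKN1A), 7p11.2 (EGFR), 9q34.3 (NOTCH1) and 17q25.1 (ITGB4).

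Known keratinocyte loci were then read at the level of their bands. The 45 loci, chosen with earlier results of these data known, lie in 43 bands, 2 of which hold 2 loci each, and all 43 held a region, as did 89.7% of all bands. Their 709 regions gave 3.70 per Mb (3.43 to 3.98), against 1.94 in the whole list. Of the 43, 36 (83.7%) were at or above 1.94 per Mb, against 44.8% of all bands. In 25 of the 43 the interval lay wholly above 1.94 and in 1, 3p24.3, wholly below. The 851 bands of the 44.8% and the length behind 1.94 per Mb include centromeric, variable and stalk bands. Those classes held few or no regions, and none of the 43 bands belongs to them. Lower bounds near 1.94, as for the NECTIN1 (1.940) and FOXK1 (1.961) bands, are therefore weak calls. No comparison was matched for stain. Pale bands alone held 2.58 regions per Mb. Because the loci were chosen with results known, these shares do not test whether keratinocyte loci hold more regions. Of the 709 regions, 567 (80.0%) were also in CAL27, against 75.6% of the whole list. A band holds many genes, so these counts do not assign regions to the loci named.

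**Figure D4:**
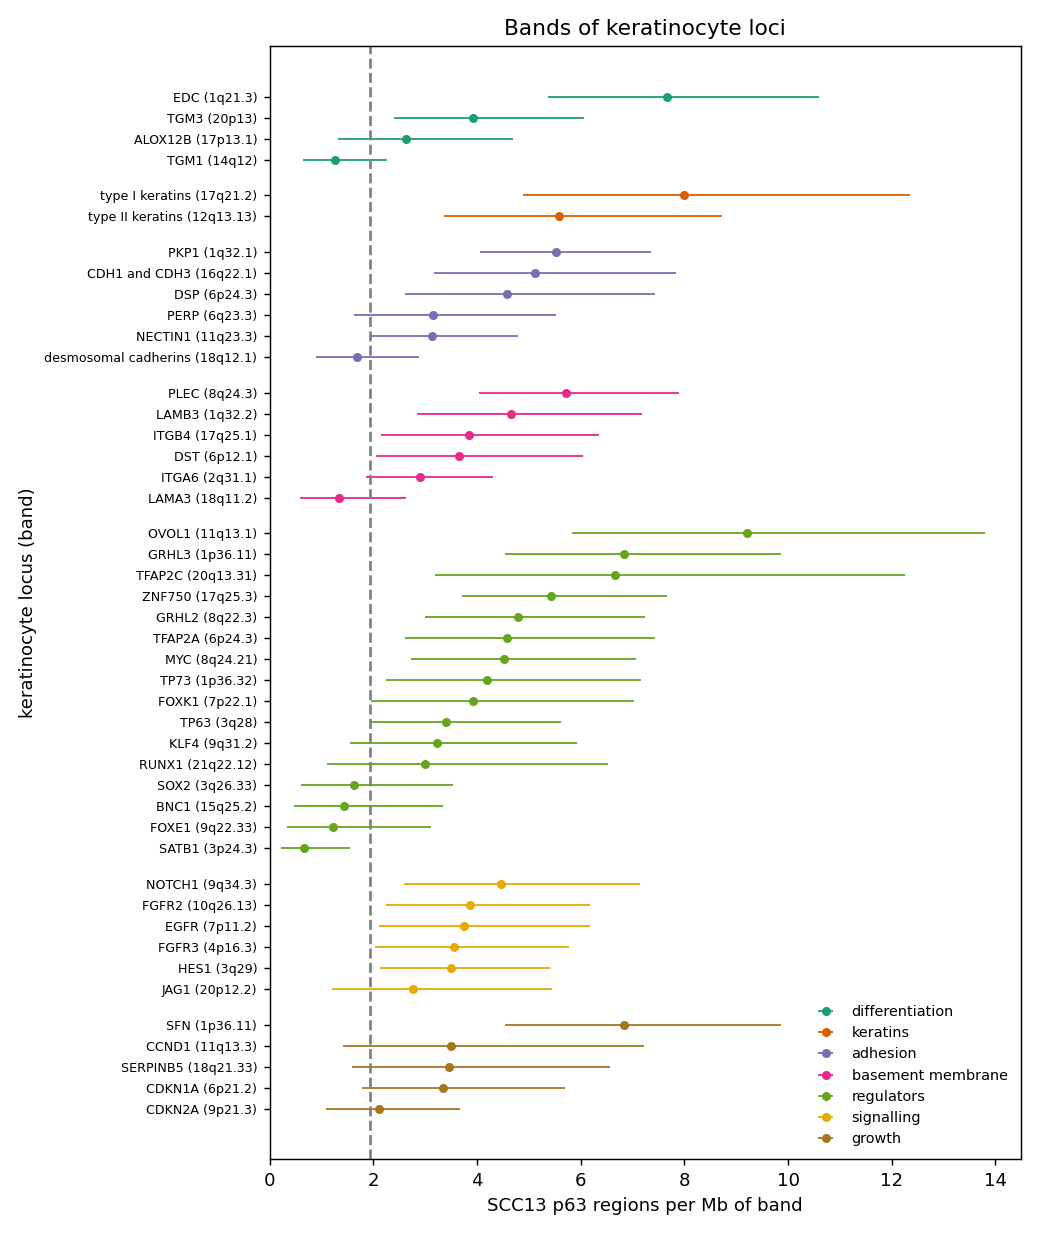
SCC13 regions per Mb (horizontal axis, with exact Poisson 95% intervals) in the band of each keratinocyte locus, grouped by role, with the density of the whole list (dashed line, 1.94 per Mb). The OVOL1 band is highest at 9.20 per Mb and the SATB1 band lowest at 0.667.

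Of 16 regulator loci, 12 lay in bands at or above the list's density, as did 44.8% of all bands. TP63 itself lies in 3q28, where 15 regions gave 3.41 per Mb (1.91 to 5.62, which includes the list's density). Of the 15, 13 were also in CAL27, and 8 lay between 189542451 and 190093075 of chromosome 3. These 8 ran from chr3:189542451-189543493 to chr3:190091779-190093075. The widest was chr3:190086623-190088576, of 1954 bp. The 2 that were absent from CAL27 lay elsewhere, at chr3:188101344-188102119 and chr3:190571214-190571852. In the TP73 band, 1p36.32, 13 regions gave 4.19 per Mb (2.23 to 7.17), and 8 of them lay between 3389311 and 3774432 of chromosome 1.

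Among other regulators, density was high in the bands of the grainyhead factor GRHL3 (1p36.11, 28 regions, 6.83 per Mb) and the AP-2 factor TFAP2C (20q13.31, 10 regions, 6.67 per Mb). It was 5.43 per Mb for ZNF750, which drives terminal differentiation (17q25.3, 32 regions), and 4.78 for GRHL2 (8q22.3, 22 regions). FOXK1, the forkhead factor named in the title of the series, lies in 7p22.1, where 11 regions gave 3.93 per Mb (1.96 to 7.03). The growth regulator MYC lies in 8q24.21, with 19 regions and 4.52 per Mb. KLF4, a factor of differentiating layers (9q31.2, 10 regions), and RUNX1 (21q22.12, 6 regions) had 3.23 and 3.00 per Mb, with intervals that include 1.94.

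The 4 regulators in sparse bands were SOX2, a lineage factor of squamous tumours (3q26.33, 6 regions, 1.62 per Mb), BNC1, a factor of basal keratinocytes (15q25.2, 5 regions, 1.43), FOXE1 (9q22.33, 4 regions, 1.21) and the chromatin organiser SATB1 (3p24.3, 5 regions, 0.667). All 6, 5 and 4 regions of the first 3 were also in CAL27, and 2 of 5 in 3p24.3. Except for SATB1 (0.216 to 1.56), the intervals of these bands include the list's density. In 9q22.33, 3 of the 4 regions lay between 100924668 and 101011692, and the gap of 6.01 Mb named above began there.

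Both keratin clusters lay in dense bands. Keratins are the intermediate filament proteins of epithelia, with type I and type II chains pairing. In the type I band, 17q21.2, 18 of 20 regions were also in CAL27, and 11 of the 20 lay between 38649575 and 39510146 of chromosome 17. The widest was chr17:39495256-39496576, of 1321 bp. In the type II band, 12q13.13, 19 regions gave 5.59 per Mb (3.36 to 8.73), and 13 were also in CAL27. Of these 19, 11 lay between 52545779 and 53300662 of chromosome 12, among them the widest, chr12:52914778-52916960, of 2183 bp. In these bands 2 of 20 and 4 of 19 regions had a neighbour within 12.5 kb, against 12.3% of the whole list.

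Among differentiation loci, the epidermal differentiation complex, which encodes cornified envelope and S100 proteins, stood highest. Of its band's 36 regions, 33 were also in CAL27, and 15 lay between 151996296 and 152945904 of chromosome 1. The widest of these 15, of 2180 bp, was chr1:152925891-152928070, and the widest of the band was the 3420 bp region at chr1:153537808-153541227. The 3 regions absent from CAL27 were 372 bp at chr1:151167719-151168090, 872 bp at chr1:152365082-152365953 and 482 bp at chr1:154880608-154881089. All 3 were narrower than the band's median of 1006.5 bp. Over the whole list, regions listed in SCC13 only had a median of 589.5 bp, against 934 bp for regions in both lists. The bands of TGM3, a cross-linking enzyme of the envelope (20p13), and of the lipoxygenase ALOX12B (17p13.1) had 3.92 and 2.62 per Mb. The band of TGM1, another cross-linking enzyme (14q12), had 11 regions and 1.26 per Mb (0.631 to 2.26). The intervals of the ALOX12B and TGM1 bands include the list's density.

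Of 6 adhesion loci, 5 were in bands at or above the list's density, against 44.8% of all bands. PKP1, a desmosome plaque protein, lies in 1q32.1, where 47 regions gave 5.53 per Mb (4.06 to 7.35) and 37 were also in CAL27. The cadherins CDH1 and CDH3 (16q22.1, 21 regions) had 5.12 per Mb, and the desmosome proteins DSP (6p24.3, 16 regions) and PERP (6q23.3, 12 regions) had 4.57 and 3.16. NECTIN1 (11q23.3, 21 regions) had 3.13 per Mb. The interval of the PERP band includes the list's density. The exception was the band of the desmosomal cadherins, the desmogleins and desmocollins, in 18q12.1. Its 13 regions gave 1.69 per Mb (0.899 to 2.89), an interval that includes the list's density. The band is of the darkest stain class, which had 1.11 per Mb. Of the 13, 5 were also in CAL27, against 75.6% of the whole list, and the median width of the 13 was 662 bp. Of the 13, 7 lay between 28567236 and 29199869 of chromosome 18.

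Of 6 basement membrane loci, 5 were in bands at or above the list's density, against 44.8% of all bands. The hemidesmosome proteins PLEC (8q24.3, 37 regions, 5.72 per Mb), ITGB4 (17q25.1, 15 regions, 3.85), DST (6p12.1, 15 regions, 3.66) and ITGA6 (2q31.1, 24 regions, 2.89) anchor basal cells to the membrane beneath. In the ITGB4 band 12 of the 15 regions lay between 73680678 and 74663576 of chromosome 17. Of the epidermal laminin genes, LAMB3 lies in 1q32.2, where 20 regions gave 4.65 per Mb (2.84 to 7.18), and LAMA3 in 18q11.2, where 8 regions gave 1.33 (0.576 to 2.63). These intervals do not overlap, but the pair was picked after its values were seen, and no difference between the 2 bands was tested. The intervals of the ITGA6 and LAMA3 bands include the list's density.

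All 6 signalling loci and all 5 growth loci lay in bands at or above the list's density, as did 44.8% of all bands. The intervals of the JAG1, CDKN1A, CDKN2A, CCND1 and SERPINB5 bands include the list's density, so these bands are not resolved from it. NOTCH1 (9q34.3) had 17 regions and 4.46 per Mb, FGFR2 (10q26.13) 17 and 3.86, and EGFR (7p11.2) 15 and 3.75. In the EGFR band 9 regions lay between 55176679 and 56077964 of chromosome 7. FGFR3 (4p16.3) had 3.56 per Mb, the Notch target HES1 (3q29) 3.50 and the Notch ligand JAG1 (20p12.2) 2.76. Growth loci ranged from 6.83 per Mb for SFN, which encodes 14-3-3 sigma (1p36.11), to 2.11 for CDKN2A (9p21.3). CDKN1A, which encodes the cell-cycle inhibitor p21 (6p21.2), had 13 regions and 3.33 per Mb, 12 of them also in CAL27. The bands of the cyclin D1 gene CCND1 (11q13.3) and of SERPINB5, in the serpin B cluster (18q21.33), had 7 and 9 regions, or 3.50 and 3.46 per Mb, all also in CAL27.

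To ask whether SCC13 listed a different share of regions in any band, its regions were compared with the 9381 listed in CAL27 only. Regions in both lists count on the SCC13 side, so the test concerns the share of distinct regions that SCC13 listed. It does not compare the numbers of regions in the 2 lines. Among 332 bands with at least 20 regions in the 2 sets together, 0 (0%) differed in either direction by a two-sided Fisher's exact test after Benjamini-Hochberg adjustment. At an unadjusted p under 0.05 there were 29, with SCC13 higher in 13 and lower in 16. The smallest adjusted p, 0.0734 by the exact test, was shared by 3 bands. In 8p21.3, 19 of 26 regions were in the SCC13 list (73.1%, 95% exact binomial interval 52.2 to 88.4), and 7 of the 19 were also in CAL27. In 1q21.3, 36 of 59 were (61.0%, 47.4 to 73.5), and in 9q21.33, 3 of 31 (9.68%, 2.04 to 25.8). Over all bands the share was 38.6%.

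The epidermal differentiation band was the one whose call depended on how regions were counted. With neighbours within 12.5 kb counted once, 1q21.3 passed with a higher share listed in SCC13. The odds ratio was 3.29 in place of 2.50 (Fisher's exact test, adjusted p = 0.0378). With regions in both lists left out, so that only line-specific regions were compared, the odds ratio of 1q21.3 was 0.851, below 1. Its larger share in SCC13 therefore rested on the 33 regions in both lists. CAL27 itself listed 56 regions in 1q21.3, against 36 in SCC13. The test compares 2 lists, treats regions as independent and has no replicates behind it.

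**Figure D5:**
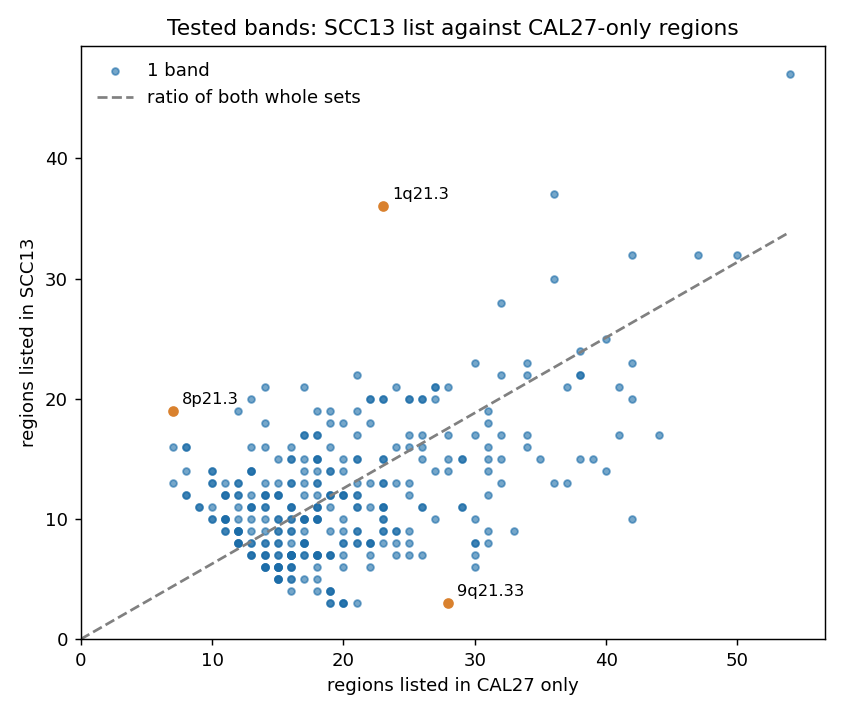
Regions listed in SCC13 (vertical axis) against regions listed in CAL27 only (horizontal axis) in each of the 332 tested bands, with the ratio of both whole sets (dashed line). The 3 bands with the smallest adjusted p, 8p21.3, 1q21.3 and 9q21.33, are named, and none passed.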

How the data were processed

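Per the labels, p63 chromatin of SCC13 was immunoprecipitated from formaldehyde-crosslinked cells. Tools named without a role in the submitters' processing notes are MACS2, SAMtools 1.8 and Bowtie2, and the build is hg19. Peak thresholds and the joining of replicates are not stated there. The authors deposited start and end positions only.

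Chromosome lengths and cytogenetic bands of hg19 came from GenomeInfoDb 1.38.1 and circlize 0.4.16 (R 4.3.3). Regions were placed by midpoint and matched between lists by an overlap of at least 1 bp; all matches were identical. Loci were tied to bands from textbook knowledge, and their 56 symbols matched the reference names, whose coordinates (another build) were not used. Some loci are not reported here, so counts over loci cover only those named. Members and lists were chosen with earlier results of these data known. Named items were the 10 widest regions, the 10 densest and 10 sparsest bands, all groups of 4 or more, the 5 shortest groups of 3, the 5 longest gaps and the 45 loci reported. Other regions and bands given beside these were chosen after their values were seen. Intervals are 95% exact. Simulated lists were drawn with a sampling weight of 2, 3 or 5 for regions in 10 of the 332 bands and 1 elsewhere. Of those bands, 17%, 78.5% and 99.5% were called. A weight is not a ratio of the shares listed, which differ by less than the weight. Calculations used pandas 2.3.3, scipy 1.17.1 and numpy 2.4.6 under Python 3.11.15, and figures matplotlib 3.10.9.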

Additional observations from a re-analysis of the deposited data

How the results depend on the processing

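No paired analysis was possible because each line has 1 list behind 2 replicates, which also kept any replicate from being left out. By Fisher's exact test with adjustment, 0 bands differed in the share of regions listed in SCC13. The count was 0 with at least 10 regions required, 0 with regions of both lists left out and 1 with neighbours counted once. The odds ratio of 1q21.3 was 0.851 with regions of both lists left out. The highest density, 9.20 per Mb in 11q13.1, was 8.80 there with neighbours counted once (8 of the 10 densest bands kept) and 6.80 with regions at least as wide as the median (6 kept). With bands of at least 4 Mb it was 7.66, in 1q21.3 (3 kept, since shorter bands drop out), and in windows of 5 and 1 Mb it was 7.40 and 14. The median distance to a neighbour, 102 kb, was 139 kb for regions listed in SCC13 only and 88.7 kb for those at least as wide as the median; the cause was not tested. Groups numbered 25, against 7, 85 and 199 at joining distances of 5000, 25000 and 50000 bp, and 345, 6 and 1 with at least 2, 4 and 5 regions, as the joining rule dictates. The 36 locus bands at or above the list's density were 36 with neighbours counted once. Stricter thresholds could not be tried, since regions have no score, and the depth is unknown.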

Other observations

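Some SCC13 regions lay where few others did. The most isolated was chr21:9851014-9852123 in 21p11.2, listed in SCC13 only, with its nearest neighbour 4.53 Mb away. It was followed by chr9:67292965-67293759 in 9q13, in both lists, at 4.42 Mb, and by chrX:77612772-77613670 in Xq21.1, listed in SCC13 only, at 4.29 Mb. Of 27 regions in centromeric bands 14 were also in CAL27, or 51.9% (95% exact binomial interval 31.9 to 71.3), and of 7 in variable bands 3. Variable bands held 0.0714 regions per Mb. In 16q12.1 none of 3 SCC13 regions was also in CAL27, against 75.6% shared over the whole list, and this was not tested. CAL27 had 20 regions of its own there. The band's 3 against 20 regions did not pass the comparison of the lists (Fisher's exact test, adjusted p = 0.280). In 11q23.3, the band of the adhesion protein NECTIN1, 11 of 21 SCC13 regions were also in CAL27.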
